A study of Rattus norvegicus with 6 samples.

Results

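The small leucine-rich proteoglycans are secreted matrix proteins that bind collagen, and 9 of them were followed here by name: Dcn, Lum, Bgn, Fmod, Ogn, Aspn, Prelp, Omd and Podn. The gene table of 17557 rows (17030 symbols) held 8 of the 9, on 11 rows, and Podn was not analysed here. Of the 8, Dcn, Lum, Bgn, Fmod and Prelp averaged 1 FPKM or more and were tested, Ogn was near 0, and Aspn and Omd were listed at 0 in every tumor. FPKM are fragments per kilobase of transcript, scaled to library size, so that levels of different genes can be set side by side per length.

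The study asked what digitoxin, a cardenolide that blocks the sodium pump, does to a castration resistant rat prostate tumor. PAIII cells, passaged from a spontaneous prostate tumor of a Lobund-Wistar rat, were implanted under the skin of the right flank in Lobund-Wistar rats 2 months old. From day 10 the rats received digitoxin (0.03 mg/kg daily) or vehicle, and tumors were taken on day 40. RNA-seq was done on micropunches from viable regions of the primary tumors of 6 rats, digitoxin-treated A1, A6 and A12 (replicates 1, 2 and 3) and vehicle-treated B5, B9 and B14 (replicates 1, 2 and 3). All 6 rats carried the same tumor line and no genetic alteration is given for any of them. The digitoxin rats were picked for low and the vehicle rats for high serum IL-6 and CINC-1, so treatment and serum marker level cannot be told apart. Each library is 1 rat, and p-values measure the spread between these tumors.

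Small leucine-rich proteoglycans have a core protein of leucine-rich repeats that lies along collagen fibrils and sets their diameter and spacing. Decorin (Dcn), biglycan (Bgn) and asporin (Aspn) form one class, of which the first pair carry chondroitin or dermatan sulfate chains. Lumican (Lum), fibromodulin (Fmod), prolargin (Prelp) and osteomodulin (Omd) form another, several of whose members carry keratan sulfate or sulfated tyrosines, while osteoglycin (Ogn) and podocan (Podn) belong to further classes. In tumors they are mostly products of fibroblasts in the stroma, and decorin is known to bind TGFβ and receptor tyrosine kinases.

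The members lie in small clusters. In the table, whose rat build is not stated, Dcn was placed at chr7:38783713-38823740 and Lum at chr7:38861406-38868211, 37.7 kb apart. Further genes of the family, Kera (keratocan) and Epyc (epiphycan), followed Lum, and both were listed at 0 in every tumor while Dcn and Lum were above 3 FPKM in each. They were named after their values were seen. Prelp (chr13:55804880-55814122) and Fmod (chr13:55928422-55939040) lay 114 kb apart, with Optc (opticin) 5.29 kb beside Prelp. Bgn was placed on its own at chr1:153067989-153080152, and Ogn, Omd and Aspn lay together on chromosome 17.

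Promoter sequences from RefSeq (assembly GRCr8) were found for 6 of the 9 members, and those of Lum and Fmod are printed because the Lum mRNA varied most and the Fmod mRNA least over the 6 tumors among the tested members. Each is the 250 bases before the annotated start, 5′ to 3′ on the plus strand, at chr7:34245456-34245705 for Lum and chr13:48045317-48045566 for Fmod in GRCr8, which is another build than that of the table. Capitals mark matches to the motifs searched.
Lum: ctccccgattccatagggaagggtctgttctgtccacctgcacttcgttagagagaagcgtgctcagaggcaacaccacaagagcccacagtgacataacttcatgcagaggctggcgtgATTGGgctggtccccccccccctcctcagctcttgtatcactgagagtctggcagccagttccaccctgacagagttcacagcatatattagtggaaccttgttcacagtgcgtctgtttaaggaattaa
Fmod: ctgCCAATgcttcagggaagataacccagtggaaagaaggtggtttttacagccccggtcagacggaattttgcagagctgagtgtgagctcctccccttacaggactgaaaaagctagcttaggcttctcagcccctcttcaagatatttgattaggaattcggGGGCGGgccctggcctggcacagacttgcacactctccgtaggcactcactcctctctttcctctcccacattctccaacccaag
Both strands were searched for a TATA box (TATAAA, in 12.93% of all 33469 promoters of this length), a CCAAT box (CCAAT, in 34.02%), a GC box (GGGCGG, in 30.47%) and an AP-1 site (TGANTCA, in 6.34%). Lum held a CCAAT box on the minus strand whose first printed base lay 130 bases before the start. Fmod held a CCAAT box on the plus strand 247 bases before the start and a GC box 85 bases before it. No match to the TATA box or AP-1 letters was found in either window. The matches do not overlap each other and are a description of the letters only.

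2 libraries stood apart from the other 4 before any comparison of treatments. mRNAs of the lung alveolar epithelium (9 of 10 listed markers in the table) summed to 27883 to 84799 FPKM in A1, A6, B5 and B9, and to 40.8 and 62.6 FPKM in A12 and B14, 1 library of each treatment. Sftpc, the surfactant protein C gene, reached 63514 FPKM in A6 and was at 0.229 in A12 and listed at 0 in B14. The label is subcutaneous PAIII tumor for all 6. Krt8, a keratin listed here as an epithelial carcinoma marker, was present in each, at 398 (A6) to 2095 FPKM (A12). Whether it came from carcinoma cells or from other epithelium was not tested. The summed FPKM of a library ranged from 651322 to 1025230. Results are therefore given with and without A12 and B14, and the part of the lung mRNAs in any of them was not tested. Over the 10749 rows tested, 3233 (30.1%) were higher in both A12 and B14 than in each of the other 4 libraries, and 3147 (29.3%) were lower in both.

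Decorin and lumican mRNAs were far more abundant in A12 and B14 than in the other 4 tumors. Dcn was at 50.3, 50.5 and 230 FPKM in digitoxin-treated A1, A6 and A12, and at 33.2, 26.0 and 681 FPKM in vehicle-treated B5, B9 and B14. A12 was thus 4.56-fold above the higher of the other digitoxin tumors, and B14 was 20.5-fold above the higher of the other vehicle tumors. In these bulk samples more cells with these mRNAs and more of the mRNAs per cell cannot be told apart, and which cells held them was not tested.

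Lum, which encodes the keratan sulfate proteoglycan of cornea, skin and other collagenous stroma, followed Dcn with wider steps. Its levels were 8.67, 6.07 and 217 FPKM in A1, A6 and A12, and 4.85, 3.02 and 401 FPKM in B5, B9 and B14. A12 stood 25.1-fold above the higher of its group and B14 82.5-fold. From the lowest to the highest tumor Lum spanned 133-fold and Dcn 26.2-fold, and in both groups the order of the 3 tumors was led by the library with almost no surfactant mRNA. On the log2(FPKM + 1) scale, the smaller of the A12 and B14 steps over the rest of their groups was 4.50 for Lum, a size no other of the 10749 rows reached, and 2.17 for Dcn, which 18 rows reached, Dcn and Lum included. With a pseudocount of 0.1 in place of 1, 2 rows reached the value of Lum and 45 that of Dcn, each count again including the gene itself. This measure was chosen after the levels had been seen and is a description.

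Bgn, the decorin relative whose core can act on Toll-like receptors, moved in the same direction by less. It was at 97.9, 54.2 and 176 FPKM in A1, A6 and A12, and at 90.7, 82.4 and 252 FPKM in B5, B9 and B14. A12 was 1.80-fold and B14 2.78-fold above the higher of the rest of their groups, and 514 rows (4.78%) had a step at least as large. Bgn was the most abundant member in A1, A6, B5 and B9 and ranked behind Dcn and Lum in A12 and B14.

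Fmod and Prelp, the chromosome 13 neighbors, did not share this order. Fmod, a collagen fibril regulator best known from cartilage and tendon, was at 39.5, 12.6 and 45.1 FPKM in A1, A6 and A12, and at 31.4, 27.9 and 29.8 FPKM in B5, B9 and B14. Its vehicle tumors were close together, and A6 was the lowest of all 6. Prelp, which links collagen to basement membrane heparan sulfate, was at 31.7, 31.0 and 7.77 FPKM in the digitoxin tumors and at 16.2, 41.5 and 11.3 FPKM in the vehicle tumors. The lowest Prelp values were those of A12 and B14, where A12 was 3.99-fold under the lower of the rest of its group and B14 1.44-fold. Of the 5 tested members, 3 (Dcn, Lum and Bgn) were thus higher in both A12 and B14 than in each of the other 4 tumors, against 30.1% of all rows, 1 (Prelp) was lower in both, against 29.3%, and Fmod was neither.

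**Figure D1:**
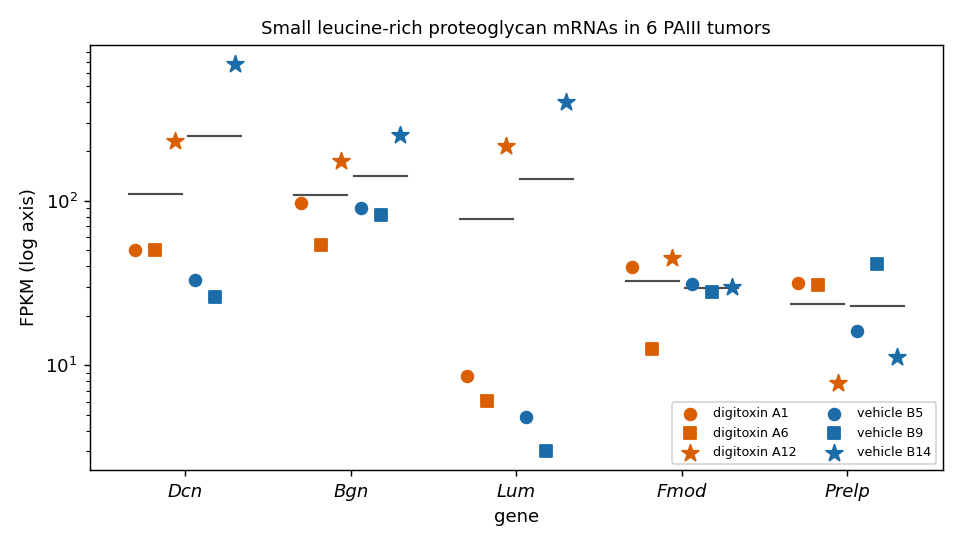
FPKM on a log axis of the 5 tested members in each tumor (orange, digitoxin; blue, vehicle; stars, A12 and B14), with a horizontal line at the mean of each group of 3. The stars of Dcn, Lum and Bgn lie above the other 4 tumors, up to 681 FPKM for Dcn, those of Prelp lie below them, and for Fmod A12 is the highest of the 6 and B14 lies among the rest.

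The make-up of the family differed between tumors accordingly. The 5 mRNAs summed to 228, 154 and 676 FPKM in A1, A6 and A12, and to 176, 181 and 1375 FPKM in B5, B9 and B14. Dcn and Lum together made up 25.9%, 36.7%, 21.6% and 16.0% of that sum in A1, A6, B5 and B9, and 66.2% and 78.7% in A12 and B14. Lumican alone was 1.67% to 3.94% of the sum in the 4 tumors with surfactant mRNA and 32.1% and 29.1% in A12 and B14. The ratio of Lum to Dcn was 0.116 to 0.172 in A1, A6, B5 and B9, 0.943 in A12 and 0.588 in B14. Prelp was 9.20% to 23.0% of the sum in the first 4 and 1.15% and 0.821% in A12 and B14.

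**Figure D2:**
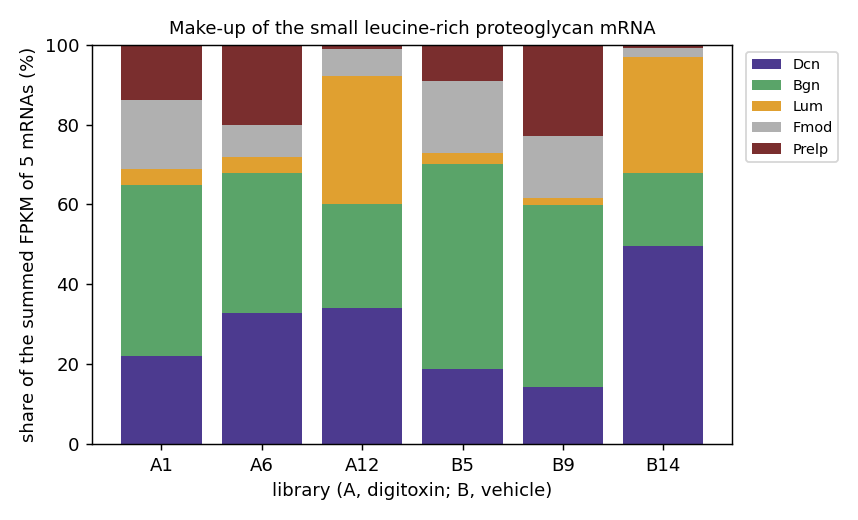
Share of the summed FPKM of Dcn, Bgn, Lum, Fmod and Prelp taken by each gene, as stacked bars from 0 to 100%, for each library (A, digitoxin; B, vehicle). In A12 and B14 Dcn and Lum take 66.2% and 78.7%, while Bgn is the largest band in A1, A6, B5 and B9.

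Across all 6 tumors, Dcn and Lum had the widest spread of the members. The SD of log2(FPKM + 1) over the 6 tumors was 2.91 for Lum and 1.82 for Dcn, larger than in 99.3% and 96.9% of rows tested, against a median SD of 0.51 over all rows. It was 0.90 for Prelp, 0.79 for Bgn and 0.62 for Fmod, larger than in 77.7%, 71.8% and 59.6% of rows. Pearson's r of log2(FPKM + 1) over the 6 tumors was 0.980 for Dcn with Lum, 0.889 for Dcn with Bgn and 0.917 for Lum with Bgn. It was -0.772 for Dcn with Prelp and 0.261 for Dcn with Fmod. These are descriptions over 6 libraries of which 2, A12 and B14, stand apart. Prelp and Fmod, although neighbors, gave -0.473.

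Ogn, Omd and Aspn gave no usable level. Ogn, a matrix proteoglycan of bone and vessel wall, was listed at 0, 0 and 0.0487 FPKM in A1, A6 and A12, and at 0.0567, 0.0230 and 0.0341 FPKM in B5, B9 and B14 on the row chr17:17506165-17526899, and at 0 throughout on its other row, chr17:16659762-16680259. Omd, a keratan sulfate proteoglycan of bone, and Aspn, the asporin gene, were each on 2 rows of chromosome 17 with 0 in all tumors. These zeros are entries of the table and were not read as absence. Of the 467 symbols on more than 1 row, 340 (72.8%) were at 0 in every tumor, against 2346 of 16563 (14.2%) of those on 1 row. Nol8, a nucleolar gene on 2 rows beside them, was at 0 in all 6, and Col1a2 on 2 rows of chromosome 4 was too, while its partner chain Col1a1 was at 12.7 to 1665 FPKM. Both genes were named after their values were seen, and whether near-identical copies split the reads of these rows was not tested.

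No member differed between digitoxin and vehicle beyond the spread between tumors. Group means were 110.4 ± 104 FPKM with digitoxin and 247 ± 376 with vehicle for Dcn, 77.3 ± 121 and 136 ± 229 for Lum, and 109 ± 61.6 and 142 ± 95.9 for Bgn (mean ± SD, n = 3 each). They were 32.4 ± 17.4 and 29.7 ± 1.78 FPKM for Fmod and 23.5 ± 13.6 and 23.0 ± 16.2 for Prelp. The groups overlapped for all 5, whereas 4.16% of all rows had groups that did not. For Dcn and Lum the SD of each group was close to its mean or above it.

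By limma on log2(FPKM + 1), with p-values adjusted over all 10749 rows, the log2 fold change of digitoxin over vehicle for Dcn was -0.0138 (SE 1.34, 95% interval -3.26 to 3.24, adjusted p = 0.999). For Lum it was 0.22 (SE 2.13, -4.94 to 5.38, adjusted p = 0.986). These intervals, from the fit without a replicate block, leave room for large differences in either direction. Blocked by replicate number, which sets A12 beside B14, the SE were 0.48 for Dcn and 0.40 for Lum with the same fold changes. The log2 fold change was -0.34 for Bgn (SE 0.59, -1.76 to 1.09, adjusted p = 0.935), -0.064 for Fmod (SE 0.49, -1.25 to 1.12, adjusted p = 0.983) and 0.0092 for Prelp (SE 0.69, -1.66 to 1.68, adjusted p = 0.999). The exact permutation test of Dcn gave p = 1.0, two-sided, where 3 against 3 cannot go below 0.10. None of the 5 passed an adjusted p of 0.05 in limma, as did 0 of all rows (0.0%), and none had an unadjusted p under 0.05, against 36 rows (0.335%). The median log2 fold change of the 5 was -0.0138, beside -0.16 over all rows. Median-of-ratios scaling moved the median of all rows up by 0.18, and under it Dcn was at 0.18 and Fmod at 0.13, so that no direction is given for either. Lum, Bgn and Prelp changed sign when single tumors were left out, so none is given for them. Lum was at -1.35 without A12, and without B14 Bgn was at 0.18 and Prelp at -0.37.

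Without A12 and B14 the decorin and lumican levels of the digitoxin tumors lay above those of the vehicle tumors. Dcn at 50.3 and 50.5 FPKM against 33.2 and 26.0 was a ratio of means of 1.70, and the log2 fold change was 0.76 (SE 0.27, 95% interval 0.10 to 1.42) with an unadjusted limma p of 0.0302 and an adjusted p of 0.392. Lum at 8.67 and 6.07 against 4.85 and 3.02 FPKM was a ratio of 1.87, with a log2 fold change of 0.77 (SE 0.44, -0.30 to 1.84, adjusted p = 0.407). The corresponding log2 fold changes were -0.24 for Bgn, -0.39 for Fmod and 0.26 for Prelp, with unadjusted limma p of 0.492, 0.491 and 0.592. None of the 5 passed the adjusted threshold, which 2 rows (0.0186%) did, and 1 of 5 was higher at an unadjusted p under 0.05, against 416 rows (3.87%). The groups of 2 did not overlap, with digitoxin higher, for 2 of 5 members, against 17.2% of all rows. In either direction they did not overlap for the same 2 of 5, against 57.2% of all rows, of which 4303 were lower with digitoxin. The exact permutation test of Dcn gave p = 0.333, the smallest that 2 against 2 allows.

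**Figure D3:**
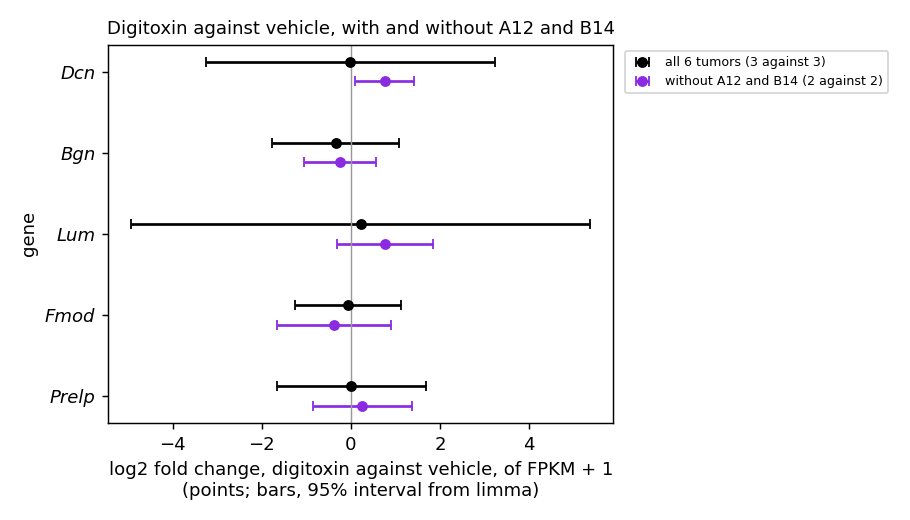
Log2 fold change of FPKM + 1, digitoxin against vehicle, for the 5 tested members with all 6 tumors (black) and without A12 and B14 (purple), where points are limma estimates and bars their 95% intervals. All black intervals include 0, and among the purple ones that of Dcn, 0.10 to 1.42, does not.

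Other marker lists also had medians that differed between treatments in the same 4 tumors. No gene of these lists passed an adjusted p of 0.05 in the limma fit of these 4, and a count of 1 in a small list is no result. Without A12 and B14, the median log2 fold change of the 9 lung alveolar markers was 1.08, with 5 of them higher at an unadjusted limma p under 0.05, against 3.87% of all rows, and that of the 8 endothelial markers was 0.86, with 3 higher. The 13 tested fibroblast markers had a median of 0.56, with 5 higher, and the 6 smooth muscle markers had a median of 1.02, with 1 higher. The 8 cell cycle genes had a median of -1.96, with 1 lower, against 7.14% of all rows, the 5 epithelial carcinoma markers had a median of -0.59, with 1 (Epcam) lower, and the median of all rows was -0.24. A6 stood apart in the cell cycle genes, which summed to 36.2 FPKM in A6 against 241 in A1, 333 in B5 and 357 in B9. Their part in the Dcn and Lum values was not tested.

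The collagens that these proteoglycans bind were highest in A12 and B14, as Dcn and Lum were. Of 12 listed fibrillar collagens and partners, 8 were tested and all 8 were higher in both A12 and B14 than in the other 4 tumors, against 30.1% of all rows. Col11a1 averaged under 1 FPKM in the other 4 and passed the filter only with A12 and B14, which favors its place in this count, and without it the count is 7. Col1a1, the main fibrillar chain of stroma, was at 381, 12.7 and 1205 FPKM in A1, A6 and A12, and at 35.4, 88.8 and 1665 FPKM in B5, B9 and B14. Col3a1, its partner in soft tissue fibrils, was at 389, 134 and 1120 FPKM with digitoxin and at 194, 168 and 1171 with vehicle. A1 had a far higher Col1a1 level than A6, B5 or B9 although its Dcn level matched that of A6. Among 14 tested genes of collagen processing and crosslinking, 11 were higher in both libraries and none lower, against 30.1% and 29.3% of all rows, including Serpinh1, the collagen chaperone, and Pcolce, an enhancer of procollagen cleavage. Adamts14 passed only with A12 and B14 too, which leaves 10. These and Adamts4, Igf1r, Fap, Spock2 and Gzmb in the lists that follow were named after their values were seen, because the filter of 1 FPKM favors their place in a count. Over all rows, 109 of the 3233 that were higher averaged under 1 FPKM in the other 4 libraries, and 753 of the 3147 that were lower averaged under 1 FPKM in A12 and B14.

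Enzymes that build the glycosaminoglycan chains were at similar summed levels in all 6 tumors. The 18 linkage and chondroitin or dermatan sulfate enzymes in the table, such as B3gat3, Chpf, B4galt7 and Chst12, summed to 223 to 246 FPKM in the 6 libraries, while the summed FPKM of the 5 core proteins ranged from 154 to 1375. Of their 15 tested genes, 4 were higher in both A12 and B14, 2 lower and 9 neither. Keratan sulfate and tyrosine sulfation enzymes (7 tested) had 2 higher, 3 lower and 2 neither. Over all rows 30.1% were higher and 29.3% lower, and with so few genes these counts are no result about the enzymes. B4galt4, a galactosyltransferase that acts on keratan sulfate chains, was at 16.3, 23.7 and 1.08 FPKM in A1, A6 and A12, and at 12.9, 21.0 and 1.32 FPKM in B5, B9 and B14, lowest in A12 and B14 as Prelp was.

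Among proteases known to cleave small leucine-rich proteoglycans, 6 of 11 tested were higher in both libraries (5 without Adamts4, which passed the filter only with A12 and B14), 1 was lower (Gzmb, under 1 FPKM in both and so tested through the other 4) and 4 neither, against 30.1% higher and 29.3% lower over all rows. Mmp3, stromelysin, was at 14.3, 0.0852 and 371 FPKM with digitoxin and at 23.6, 14.2 and 377 FPKM with vehicle. Mmp2 and Mmp14, a gelatinase and the membrane enzyme that activates it, were also highest in A12 and B14. Of 13 tested receptors and ligands bound by these proteoglycans, 6 were higher in both, among them Itgb1, Cd44 and Tgfb1 (5 without Igf1r, which passed only with A12 and B14), and 2 were lower, against the same shares. Bmp4, a ligand that biglycan binds, was 1 of the 2, tested through the other 4 libraries, at 73.3, 80.4 and 0.974 FPKM in the digitoxin tumors and 37.5, 71.5 and 0.446 FPKM in the vehicle tumors.

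Of 12 tested proteoglycan core proteins outside the family, 4 were higher in both A12 and B14, 4 lower and 4 neither, shares near the 30.1% and 29.3% of all rows, and 2 of the 4 lower (Gpc3 and Spock2) were under 1 FPKM in A12 and B14 and so tested through the other 4. Sdc1, the epithelial syndecan, was at 142 to 338 FPKM with A12 and B14 highest, and Sdc4 did not separate them. Gpc3, a cell surface glypican, was at 97.9, 84.9 and 0 FPKM in A1, A6 and A12, and at 77.1, 137 and 0.690 FPKM in B5, B9 and B14. Srgn, the serglycin of blood cells, was at 78.2 to 212 FPKM. Tsku, tsukushi, the only further family member tested of 9 listed, was at 9.25, 2.56 and 15.6 FPKM with digitoxin and at 4.87, 4.61 and 15.5 FPKM with vehicle, and Optc, Chad and Nyx were under 1 FPKM throughout.

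None of the 80 genes tested in these 8 lists passed an adjusted p of 0.05 between digitoxin and vehicle in limma, and no row of the 10749 did. None of the 80 had an unadjusted limma p under 0.05, against 36 of all rows (0.335%), so these counts are no result about the lists. The median log2 fold changes were 0.041 for the fibrillar collagens, 0.069 for collagen processing, 0.035 for the chondroitin or dermatan sulfate enzymes, 0.11 for the keratan sulfate and tyrosine sulfation enzymes, -0.13 for the proteases, -0.41 for the receptors and ligands and -0.15 for the other core proteins, beside -0.16 over all rows.

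Fibroblast markers moved only in part with Dcn and Lum. The 14 of 15 fibroblast markers in the table summed to 1473, 1044 and 3077 FPKM in A1, A6 and A12 and to 607, 816 and 3757 FPKM in B5, B9 and B14. Of the 13 tested, 8 were higher in both A12 and B14 (7 without Fap, which passed the filter only with these libraries), against 30.1% of all rows, among them Postn, a matricellular protein of activated fibroblasts, at 152, 82.1 and 443 FPKM with digitoxin and 81.1, 113 and 560 FPKM with vehicle. Another 4, Pdpn, Dpt, Pi16 and Tcf21, were lower in both, against 29.3% (3 without Tcf21, tested through the other 4 libraries). Pdpn was at 360, 538 and 24.5 FPKM in A1, A6 and A12, and at 176, 295 and 47.4 FPKM in B5, B9 and B14. It was the largest part of the list sum in A6 and B9. Its level was low where the lung alveolar markers were low, and which cells held it was not tested. Tcf21, a transcription factor of resident fibroblasts of lung and other organs, was at 38.3, 54.1 and 0 FPKM in the digitoxin tumors and at 16.6, 31.5 and 0 FPKM in the vehicle tumors. Thy1, a surface protein of many stromal cells, was at 4.02, 1.04 and 87.2 FPKM with digitoxin and at 3.27, 3.80 and 90.7 FPKM with vehicle. Dpt, Pi16, Tcf21 and Thy1 were named after their values were seen. Fibroblast markers were thus present in all 6 libraries, with different genes leading in A12 and B14.

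Markers of other cell types that could hold these mRNAs were measured beside them, and their part in the member values was not tested. The counts of genes higher or lower in both A12 and B14 stand against 30.1% and 29.3% of all rows, and those of small lists near these shares are no result. Smooth muscle markers (6 of 6 in the table) summed to 183 to 377 FPKM with digitoxin and 62.1 to 781 with vehicle, highest in A12 and B14, and pericyte markers (6 of 6) to 18.0 to 66.2 and 20.7 to 98.0 FPKM, with 3 of 6 tested genes higher in both in each list. Endothelial markers (8 of 8) summed to 335 to 1378 FPKM in A1, A6, B5 and B9 and to 81.8 and 97.7 FPKM in A12 and B14, with 7 of 8 lower in both. Mesothelial markers (4 of 6) had 2 lower in both of 4 (1 without Upk1b, tested through the other 4 libraries). They summed to 701 to 2018 and 1316 to 1903 FPKM. Most of each sum was Krt19, at 599 to 1865 FPKM, which is also among the epithelial carcinoma markers. Macrophage markers (6 of 7) had 3 higher and 3 lower, with sums of 500 to 708 and 488 to 1008 FPKM. Bone markers (6 of 6) summed to 24.2 to 173 and 27.6 to 118 FPKM, almost all of it Alpl and Runx2. Bglap was at most 1.11 FPKM and Sost at most 0.538. Cartilage markers (5 of 6) summed to at most 0.478 FPKM, with Acan, Comp, Matn1 and Col9a1 near 0 while Fmod, known from that tissue, was at 12.6 to 45.1. Adipocyte markers (5 of 5) summed to 319 to 2039 and 933 to 2022 FPKM, nearly all Fabp4, and skeletal muscle markers (5 of 5) to 3.31 to 8.97 and 4.65 to 11.7 FPKM. Epithelial carcinoma markers (Epcam, the keratins Krt8, Krt18 and Krt19, and a cadherin, 5 of 5 in the table) summed to 1408 to 4817 and 2807 to 4054 FPKM.

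**Figure D4:**
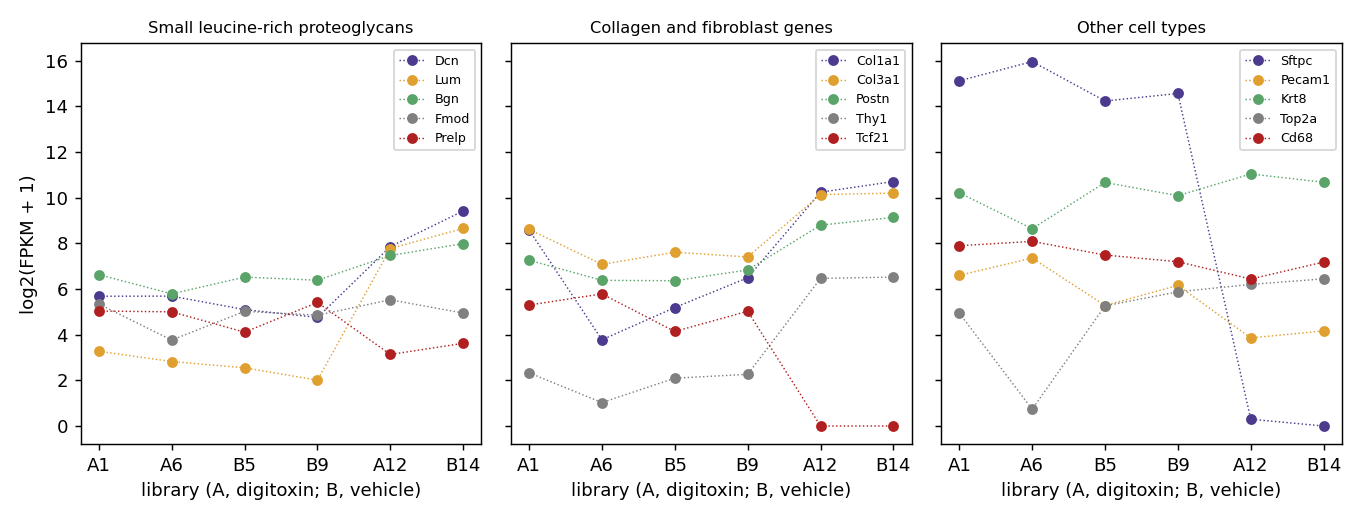
Log2(FPKM + 1) of 5 members (left), 5 collagen and fibroblast genes (middle) and 5 markers of other cells (right) in each library, ordered A1, A6, B5, B9, A12, B14, with dotted lines that only guide the eye. Dcn, Lum and Bgn are highest in A12 and B14, as are Col1a1, Col3a1, Postn and Thy1, and Prelp, Tcf21, Sftpc and Pecam1 are at their lowest.

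The 10 genes outside the family whose profile over the 6 tumors was most like the mean centred log2 level of the 5 members were C1qtnf3, Sapcd1, Epb41l3, Loxl3, Fdxr, Ptn, Inhba, Postn, Col7a1 and Gpr176, with Pearson's r from 0.986 to 0.995 over 6 libraries. Among them, Loxl3 is a lysyl oxidase that crosslinks collagen, Col7a1 the anchoring fibril collagen, Postn periostin, Ptn a heparin-binding growth factor, and Inhba the activin A subunit of the TGFβ family. Inhba was at 1.22, 0.110 and 8.04 FPKM in A1, A6 and A12 and at 0.303, 0.937 and 16.4 FPKM in B5, B9 and B14. Ptn was at 6.76, 4.56 and 16.1 FPKM with digitoxin and 3.92, 3.24 and 23.2 FPKM with vehicle. All 10 were highest in B14 and next in A12, as was the members' mean, and these 2 libraries stand apart in each r. C1qtnf3, Sapcd1, Epb41l3, Inhba, Col7a1 and Gpr176 passed the filter of 1 FPKM through A12 and B14, so that their likeness to a profile led by these libraries is favored by the filter.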

How the data were processed

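RNA-seq libraries (TruSeq kit, single reads) from 6 tumors were aligned by the authors with Bowtie 2 and TopHat 2 and quantified with Cufflinks 2, and the deposited values are FPKM per gene and tumor. The submitters' processing notes name hg19, a human build, whereas the table carries rat genes and chromosomes, so its rat build is not known. The authors compared groups with Cuffdiff, which needs reads and was not repeated. Steps between low FPKM gave no common read value, so depth and counting error are unknown, and zeros are only said to be listed as such.

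The members and gene lists were chosen with earlier results of these data known. For members on more than 1 row, the one of highest mean FPKM was used. Rows averaging at least 1 FPKM (10749) were fitted on log2(FPKM + 1) with limma 3.58.1 (lmFit, eBayes with trend) in R 4.3.3, two-sided, with Benjamini-Hochberg adjustment over all rows. Fold changes on this scale understate those of low genes. A single value was tested by exact permutation in scipy 1.17.1 (Python 3.11.15, numpy 2.4.6, pandas 2.3.3, matplotlib 3.10.9). The fit was tested on simulated data. Genes named were every member, up to 4 of each of 21 lists (8 of pathways, 13 of cell types) by mean FPKM, any list gene with an adjusted p under 0.05, and the 10 rows most like the members' mean, and others are said to be named after their values were seen. Lists were described by counts and medians without a test.

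Group labels share replicate numbers 1, 2 and 3. Deviations from the group means correlated at r = 0.426, 0.606 and 0.869 in tumors of the same number. The number was used as a block in an alternative fit, although the labels tie it to no litter or day. Of the crossed pairs, A1 with B9 gave 0.644 and A6 with B5 0.612, above A1 with B5 and A6 with B9. Those with A12 or B14 gave -0.750 to -0.661. The value of 0.869 is that of A12 with B14, which stand apart, so these correlations do not show a pairing by number. Other alternatives were median-of-ratios scaling, a fit without the filter or without the trend, a pseudocount of 0.1, each tumor left out, A12 and B14 left out together, ratios of group means and summed rows of repeated symbols.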

Additional observations from a re-analysis of the deposited data

How the results depend on the processing

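No member passed an adjusted p of 0.05 in limma under any of the alternatives run, and 1 of 5 (Dcn) had an unadjusted p under 0.05 without A12 and B14. The direction of the fold changes was not stable. Under median-of-ratios scaling the log2 fold change of Dcn was 0.18 and that of Fmod 0.13, and 1 member in place of 3 was negative. Dcn was at 0.76 without A12 and B14, and as the log2 ratio of group means Dcn was at -1.16, Lum at -0.82 and Fmod at 0.12. When single tumors were left out, the value of Dcn ran from -0.85 (without B9) to 1.48 (without B14), that of Lum from -1.35 (without A12) to 2.34 (without B14), that of Bgn from -0.76 (without A12) to 0.18 (without B14), that of Fmod from -0.39 (without A12) to 0.49 (without A6) and that of Prelp from -0.37 (without B14) to 0.64 (without A12). Signs also turned for Dcn without A1 or A6 (0.35 each), Bgn without A6 (0.084), Lum without B5 (-0.71) or B9 (-0.98), and Prelp without A1 (-0.31), A6 (-0.30) or B5 (-0.13). The number of negative members ran from 1 (without A6) to 5 (without B5), and their median from -0.74 to 0.35. The cause was not tested. With the replicate number as a block the fold changes were the same and their SE were 0.48 for Dcn and 0.40 for Lum. The blocked limma p was 0.978 for Dcn and 0.599 for Lum, and no member's call changed.

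Over all rows, the count at an unadjusted p under 0.05 was 36, and it was 133 without the filter, 446 with the replicate block, 1183 without A12 and B14, and 13 (without A6 or B9) to 2114 (without A12) with 1 tumor left out. The count past an adjusted p of 0.05 was 0, and 2 without B14 or without A12 and B14. The depth is unknown, so the precision of low values is too.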
